A study of Sus scrofa with 6 samples.

Results

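MEF2A, MEF2C and MEF2D are MADS-box transcription factors that bind A/T-rich sites in the regulatory DNA of muscle, endothelial and neuronal genes. HDAC4, HDAC5, HDAC7 and HDAC9 are class IIa histone deacetylases, which bind MEF2 proteins and hold their target genes silent until kinases phosphorylate the deacetylases and 14-3-3 proteins carry them out of the nucleus. In muscle, MEF2 factors act together with MyoD-family proteins during differentiation, MEF2C and HDAC7 also have known roles in blood vessels, and long introns of HDAC9 are known in other vertebrates to hold enhancers of the neighbouring gene TWIST1.

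Open chromatin of these 7 genes was compared in 6 single-cell ATAC-seq libraries of pig embryos, in which the Tn5 transposase cuts accessible DNA and each cut carries the barcode of a droplet. Somites of embryonic days 18 (E18) and 21 (E21) and myotomes of day 28 (E28) were each collected from purebred Tibetan pigs (ZZ) and from Duroc × Tibetan crosses (DZ), with no treatment or genetic change in any group. Each library pooled 5 embryos of one sow, and each stage and breed had 1 library, so tests used all 6 libraries with stage and breed as additive terms, and stage and tissue cannot be told apart at E28. Peaks were taken when they overlapped a gene body or the 2 kb upstream of its start in the RefSeq annotation of Sscrofa11.1.

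The members held 195 of the 217138 peaks called in E18 ZZ, 179 of 199846 in E18 DZ, 178 of 171898 in E21 ZZ, 206 of 188857 in E21 DZ, 159 of 131975 in E28 ZZ and 144 of 137769 in E28 DZ. Peaks that overlapped across libraries were merged into 289 regions of the 294825 in the genome, and 80 of these (of 78533) had a peak in all 6 libraries. HDAC9 had 33 of the 80, HDAC4 18, MEF2C 13, HDAC5 6, MEF2D 5, HDAC7 4 and MEF2A 1. By element, 13 were promoters, 21 held an exon and 46 lay in introns. Of the 64439 deposited barcodes, 58809 had 2000 to 30000 counts and were kept as cells, and the kept counts of a library lay between 89816504 (E28 ZZ) and 133037579 (E18 ZZ), with medians per cell between 8084.5 (E28 ZZ) and 11452 (E18 DZ). Any pair of libraries shared 135 to 189 barcode sequences, at most 1.70% of the smaller library. Levels are given as CPM, the counts of a region scaled to the same total for each library or cell class (counts per 1e6).

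The genes lie on different chromosomes. MEF2A is on the plus strand of chromosome 1 (138398270 to 138508639) and its RefSeq model is marked partial. MEF2C is on the minus strand of chromosome 2 (96122407 to 96296927), with 40 different transcript starts, and MEF2D on the plus strand of chromosome 4 (93581563 to 93616980). HDAC4 is on the minus strand of chromosome 15 (138378237 to 138657266), HDAC5 on the plus strand of chromosome 12 (19077910 to 19119463), HDAC7 on the minus strand of chromosome 5 (78150554 to 78186051) and HDAC9 on the plus strand of chromosome 9 (87164400 to 88192803). The windows of MEF2C, HDAC5, HDAC7 and HDAC9 overlap those of LOC102159394, C12H17orf53, SLC48A1 and, for HDAC9, PRPS1L1 and LOC110262238, LOC110262239 and LOC110262241. ATAC-seq has no strand, so peaks there cannot be assigned to one gene. This holds for the start promoter and 11.7 kb intron of MEF2C (LOC102159394) and for the start promoter of HDAC5 (C12H17orf53). Regions are named below by the distance of their centre from the annotated gene start.

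Sequence of 5 regions is shown because they carry the differences between cell classes described below. Each is up to 300 bases of the Sscrofa11.1 sequence without exon bases, 5′ to 3′ on the strand of the gene, and capitals mark CAGCTG, an E-box of the kind MyoD-family factors bind, CATTCC, the core of TEAD sites, or AGGAAG, an ETS core, searched on both strands. No marked motif overlapped another. The intron region at 6.9 kb of MEF2D (chr4:93588087-93588386, plus strand), the start promoter of MEF2C (chr2:96296928-96297207, minus strand), the 11.7 kb intron of MEF2C (chr2:96285493-96285792, minus strand), the 17.9 kb intron of HDAC5 (chr12:19095408-19095707, plus strand) and the 76.3 kb promoter of MEF2C (chr2:96220443-96220742, minus strand) read as follows.
MEF2D 6.9 kb: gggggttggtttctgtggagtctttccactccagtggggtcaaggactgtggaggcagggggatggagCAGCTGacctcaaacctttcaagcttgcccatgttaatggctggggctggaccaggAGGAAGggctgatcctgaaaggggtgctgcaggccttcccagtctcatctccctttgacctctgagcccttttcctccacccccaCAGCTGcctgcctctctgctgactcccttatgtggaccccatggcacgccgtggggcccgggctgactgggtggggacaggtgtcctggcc
MEF2C start: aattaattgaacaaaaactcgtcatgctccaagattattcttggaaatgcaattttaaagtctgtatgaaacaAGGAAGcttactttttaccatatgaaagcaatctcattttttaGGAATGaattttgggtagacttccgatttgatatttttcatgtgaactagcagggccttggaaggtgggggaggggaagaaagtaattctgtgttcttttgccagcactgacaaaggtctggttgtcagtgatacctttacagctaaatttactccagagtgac
MEF2C 11.7 kb: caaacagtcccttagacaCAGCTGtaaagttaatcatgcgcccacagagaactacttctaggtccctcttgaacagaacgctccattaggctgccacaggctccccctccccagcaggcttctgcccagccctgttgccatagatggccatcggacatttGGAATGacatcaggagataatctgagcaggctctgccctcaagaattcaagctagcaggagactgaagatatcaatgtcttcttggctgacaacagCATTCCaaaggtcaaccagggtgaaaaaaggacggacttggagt
HDAC5 17.9 kb: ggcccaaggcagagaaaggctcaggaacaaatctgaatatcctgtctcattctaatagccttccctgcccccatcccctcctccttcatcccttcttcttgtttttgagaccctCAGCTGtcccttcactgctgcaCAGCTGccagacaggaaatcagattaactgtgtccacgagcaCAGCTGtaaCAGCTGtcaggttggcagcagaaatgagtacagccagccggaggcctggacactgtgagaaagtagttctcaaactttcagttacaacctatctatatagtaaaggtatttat
MEF2C 76.3 kb: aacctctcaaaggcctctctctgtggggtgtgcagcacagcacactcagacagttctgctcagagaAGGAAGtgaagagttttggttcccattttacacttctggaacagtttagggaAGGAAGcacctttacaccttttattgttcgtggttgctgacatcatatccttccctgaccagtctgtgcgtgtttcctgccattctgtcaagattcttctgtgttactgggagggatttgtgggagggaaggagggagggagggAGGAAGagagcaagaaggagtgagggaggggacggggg

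The HDAC5 sequence held 4 CAGCTG motifs, which 0.117% of the 78533 shared regions reached in a window of the same length, and the MEF2D sequence held 2, which 5.09% reached with 2 or more. At least 1 CAGCTG stood in 27.1% of all regions, at least 1 CATTCC in 20.04% and at least 1 AGGAAG in 34.9%. The MEF2C 76.3 kb sequence held 3 AGGAAG and no CAGCTG, and the MEF2C 11.7 kb sequence 1 CAGCTG and 2 CATTCC. Shares of regions with as many AGGAAG or CATTCC were not counted, so these numbers are not shown to be unusual. In a window on the centre of each region, exon bases included, the start promoter of MEF2C had 48.7% G and C, 5 CpG and 1 CAGCTG, where the median promoter region of the genome had 66.0% and 24 CpG. The 280 bases printed for it were moved off the exon and had 37.1% G and C, 2 CpG and no CAGCTG. None of the 5 windows held the MEF2 consensus, which stood in 2.92% of all regions and in 2 of the 80 member regions. A motif match describes letters only.

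The strongest promoters of the members were open in every library. HDAC4, the deacetylase with the highest promoter, gave 76.7 (ZZ) and 76.1 CPM (DZ) in the E18 libraries, 99.9 and 112 in those of E21, then 112 and 123 at E28, at its start (0.839 kb). MEF2D had 47.0 and 47.9, then 51.3 and 60.8, then 64.6 and 70.1 CPM (0.435 kb). The main MEF2C promoter, 20.4 kb inside the longest model, had 37.0 and 42.1, then 49.2 and 52.0, then 61.3 and 63.8 CPM, and HDAC5 had 30.6 and 33.1, then 40.3 and 39.4, then 45.8 and 51.4 (1.285 kb). In these 4 promoters both E28 libraries were above both E18 libraries. The share of all promoter regions in that order was not counted, so it is not shown to be particular to them. HDAC7 and HDAC9 showed no such order, with 44.1 to 56.4 CPM at the HDAC7 start and 28.2 to 37.6 CPM at the HDAC9 promoter 61.8 kb inside the gene.

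**Figure D1:**
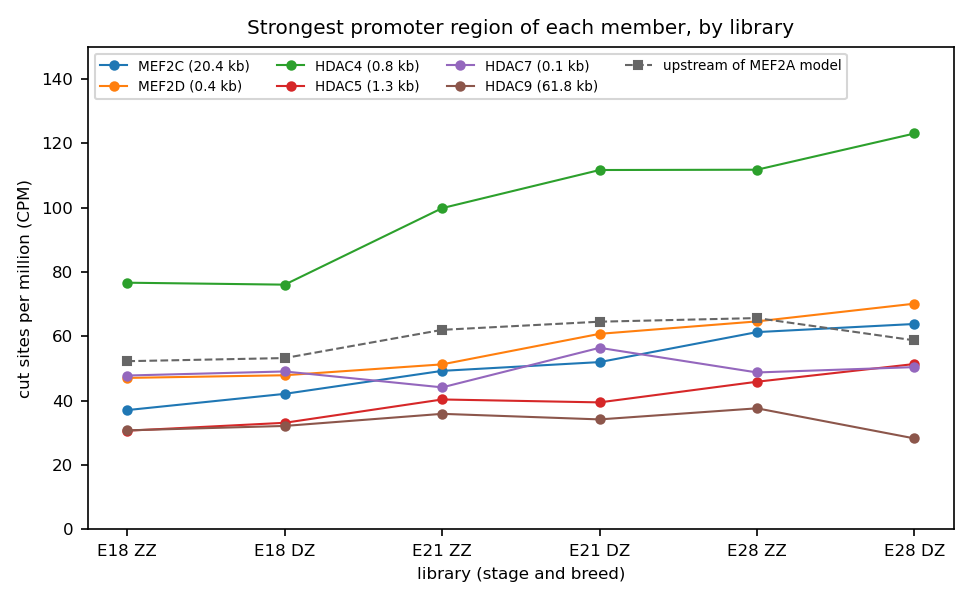
The y axis gives CPM in 1 promoter region of each member, the one with the highest mean, and in the region upstream of the MEF2A model; the x axis gives the 6 libraries by stage and breed, and each point is 1 library. HDAC4 runs from 76.1 CPM to 123 CPM, and HDAC9 stays between 28.2 and 37.6 CPM.

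Between E18 and E28, 5 of the 13 member promoters rose and 1 fell, where 23.1% of all promoter regions rose and 17.2% fell by the edgeR quasi-likelihood test (adjusted p under 0.05). The main MEF2C promoter rose by a log2 fold change of 0.62 ± 0.08 (SE; edgeR adjusted p = 0.0050), the HDAC4 start by 0.57 ± 0.10 (0.0083), the HDAC5 start by 0.56 ± 0.10 (0.0099) and the MEF2D start by 0.46 ± 0.10 (0.020). The annotated start promoter of MEF2C was far weaker, at 0.616 and 0.762 CPM at E18, 2.14 and 2.06 at E21, then 2.67 and 4.74 at E28, and rose by 2.35 ± 0.40 (adjusted p = 0.0089). The promoter that fell was the 78.0 kb start of MEF2C, with 2.59 and 3.83 CPM at E18 against 0.601 and 1.24 at E28 (−1.91 ± 0.37, adjusted p = 0.013). Without E18 DZ, edgeR gave the MEF2D start 0.33 (adjusted p = 0.16), the HDAC5 start 0.53 (0.080), the MEF2C start promoter 2.25 (0.077) and the 78.0 kb promoter −2.13 (0.090), and without E18 ZZ the last had −1.69 (0.097), so each of these 4 calls ended when 1 library was left out.

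All 80 regions together gave 17 rises and 16 falls from E18 to E28, beside 37.1% of all shared regions called in either direction (19% higher and 18.1% lower). Of the 21 exon regions 4 rose and 4 fell (14.3% and 24.6% of all exon regions), and of the 46 intron regions 8 rose and 11 fell (18.8% and 17.1%). The count of members was thus 41.2% of the 80, near the share over the genome, and the median log2 fold change was −0.06 in the members and −0.02 in all regions. MEF2C had 5 rises and 2 falls, MEF2D 1 and 2, HDAC4 1 and 5, HDAC5 2 and 0, HDAC7 0 and 1, and HDAC9 8 and 6. With the covered length of each library as an offset, as explained next, the members gave 34 rises and 5 falls. Beside them 45.8% of all regions were higher and 6.39% lower (52.2% called), and the median of all regions moved to 0.43. The start promoter of MEF2C then had 1.47 and its 78.0 kb promoter −0.76, both still called. Covered lengths went from 293 and 326 bp at E18 to 517 and 630 bp at E28 at the first, and from 587 and 663 bp to 183 and 417 bp at the second. Without E18 DZ 13 of the 80 were called, beside 8740 of all 78533 regions.

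A library has counts nowhere but in its own called peaks, and a fold change moved with the width of those peaks. Across the 80 regions the Pearson correlation between the log2 fold change from E18 to E28 and the log2 ratio of covered length was 0.895, a description in which both measures come from the same libraries, and over all 78533 regions it was also 0.895. The median log2 ratio of covered length was −0.31 in the members and −0.36 in all regions. The covered lengths of the 6 libraries stayed within 1.5 times in 25935 of all regions. With only these tested, 35.3% rose and 8.57% fell from E18 to E28, and the median was 0.24. Of the 80 member regions 19 were among them, with 7 rises, 1 fall and a median of 0.09. Among these the largest rises were in the HDAC9 intron at 883.6 kb (1.75 ± 0.33, edgeR adjusted p = 0.011), the MEF2C intron at 69.1 kb (1.07 ± 0.30, 0.035) and the MEF2C intron at 109.9 kb (1.01 ± 0.14, 0.0058), and the only fall was in the HDAC4 intron at 237.9 kb (−0.55 ± 0.16, 0.043). The MEF2C intron at 109.9 kb had 8.40 and 13.5 CPM at E18, 18.0 and 23.5 at E21, then 18.8 and 26.1 at E28, and its call held without any one library. The other 3 did not hold: without E18 DZ edgeR gave 1.53 (adjusted p = 0.11), 1.201 (0.17) and −0.46 (0.33), and without E18 ZZ the MEF2C intron at 69.1 kb had 0.94 (0.23) and the HDAC4 intron −0.64 (0.16). Without E28 ZZ the MEF2C intron at 69.1 kb had 0.85 (0.12), without E21 ZZ 1.08 (0.067) and without E21 DZ 1.07 (0.067). The HDAC4 intron had −0.54 (0.092) without E21 ZZ, −0.55 (0.085) without E21 DZ and −0.44 (0.13) without E28 DZ.

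**Figure D2:**
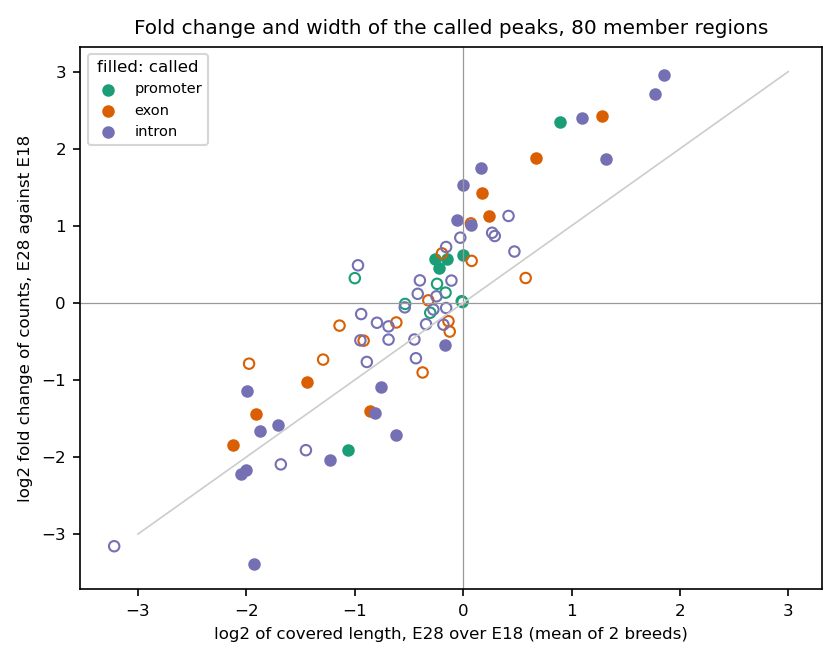
Each point is 1 of the 80 member regions, coloured by element and filled when called; the x axis is the log2 ratio of the length covered by called peaks (E28 over E18) and the y axis the log2 fold change of counts, with a line where both are equal. The points run along the diagonal, with a Pearson correlation of 0.895.

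The intron region at 17.9 kb of HDAC5, the one with 4 CAGCTG, showed the largest rise of the 80 without an offset. It had 1.27 and 0.681 CPM at E18, 1.82 and 2.12 at E21, then 6.65 and 8.92 at E28, and rose from E18 by 2.96 ± 0.45 (edgeR adjusted p = 0.0067). With the covered length as an offset the value was 1.10, beside the median region at 0.43, and still called. Other regions, led by the HDAC9 intron at 883.6 kb (1.59), were then above it. Without an offset the call held without any one library, at 3.67 without E18 ZZ and 2.34 without E18 DZ. It was also the only rise of the 80 from E21 to E28 (2.01 ± 0.43, adjusted p = 0.050), a call that ended without E21 ZZ (1.80, adjusted p = 0.27), E21 DZ (2.27, 0.23) or E28 DZ (1.56, 0.11), and with the covered length as an offset (0.52, 0.091, beside the median region at 0.33). In that step 2.53% of all regions rose and 4.61% fell, and 6 members fell, 5 of them in HDAC9 and 1 in HDAC4. From E18 to E21, 7 members rose, beside 4.8% of all regions: 6 in HDAC9 and the MEF2C intron at 109.9 kb (0.88 ± 0.14, adjusted p = 0.031). These counts were unstable to single libraries: from E18 to E21 edgeR called 0 without E18 DZ, E21 ZZ or E21 DZ, 2 without E18 ZZ, 25 without E28 ZZ and 27 without E28 DZ, and from E21 to E28 it called 0 without E21 ZZ or E21 DZ and 15 without E28 ZZ. All regions moved likewise: in the first step 0% to 0.215% were called where the members had 0, 2.29% without E18 ZZ, 21.4% without E28 ZZ and 21.7% without E28 DZ. In the second step the shares were 0% without either E21 library and 20.6% without E28 ZZ. With the covered length as an offset the splits were 16 higher and 5 lower for the first step, beside 13.0% and 4.69% of all regions, and 18 and 3 for the second, beside 30.2% and 2.26%. The median region was then at 0.08 and 0.33.

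HDAC9 had the most regions, spread over the gene, and they moved in both directions. The exon region at 808.0 kb had 13.8 and 11.2 CPM at E18, 29.0 and 33.5 at E21, then 27.5 and 28.9 at E28, and was higher at E21 than at E18 by 1.25 ± 0.18 (edgeR adjusted p = 0.026) and at E28 than at E18 by 1.12 ± 0.18 (0.0071). The intron at 402.8 kb stayed at 4.57 to 5.15 CPM through E18 and E21 and had 0.991 and 1.47 CPM at E28 (−2.04 ± 0.31 against E18, adjusted p = 0.0068). The exon at 372.6 kb went the other way, from 1.18 (ZZ) and 0.593 CPM (DZ) at E18 to 4.19 and 4.03 at E21 and 6.16 and 3.62 at E28 (2.43 ± 0.38 from E18 to E28, 0.0069). Covered lengths moved with both, from 876 (ZZ) and 792 bp (DZ) at E18 to 315 and 399 bp at E28 for the intron at 402.8 kb and from 491 and 327 bp to 1082 and 909 bp for the exon at 372.6 kb. With the covered length as an offset the values were −0.82 and 1.14, both still called, beside the median region at 0.43. The exon at 808.0 kb then had 0.61 from E18 to E21, beside 0.08, and 0.89 from E18 to E28, both called. The rise at 808.0 kb from E18 to E21 ended without E18 DZ (0.99, adjusted p = 0.12), E21 ZZ (1.44, 0.12) or E21 DZ (1.08, 0.26), and the E28 call at 372.6 kb ended without E18 DZ (2.12, 0.056). TWIST1, a mesenchymal transcription factor whose gene lies 94.1 kb past the end of HDAC9 (chromosome 9, 88286911 to 88290131), had 42.0 and 42.6, then 50.6 and 50.6, then 55.1 and 49.3 CPM in its own window.

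**Figure D3:**
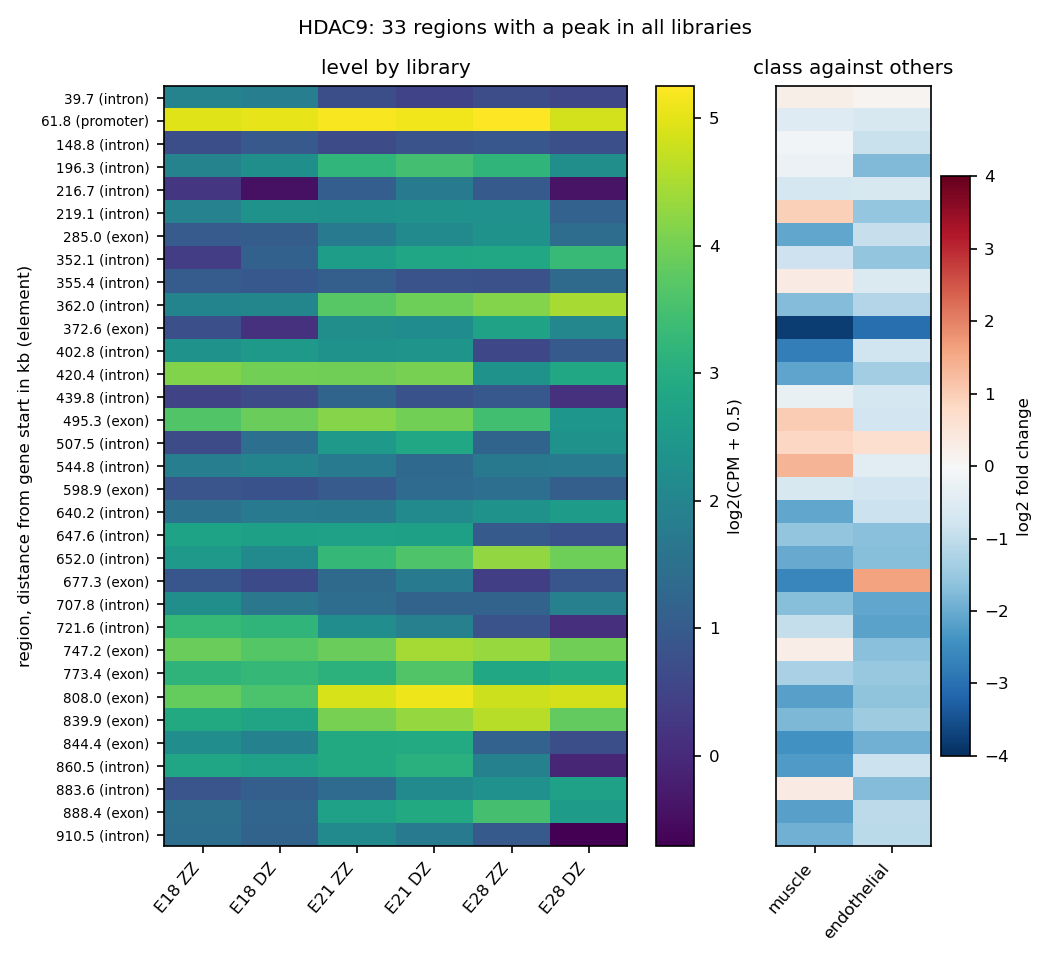
Rows are the 33 HDAC9 regions with a peak in all libraries in order of distance from the gene start; the left colours give log2(CPM + 0.5) in each library and the right colours the log2 fold change of the muscle and endothelial classes against cells of no class. The row at 808.0 kb brightens after E18, from 11.2 and 13.8 CPM to 27.5 CPM and more, and most rows at the right are blue.

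Summed over the whole gene, 3 of the 7 windows differed between E28 and E18, beside 42.9% of 22927 windows tested (20.9% higher and 22.1% lower). HDAC9 rose from 226.9 (ZZ) and 224.5 CPM (DZ) at E18 to 342.4 and 303.1 at E28 (log2 fold change 0.48 ± 0.10, edgeR adjusted p = 0.018) with 323.5 and 371.3 between them at E21. MEF2C rose from 104.7 and 121.2 CPM through 138.7 and 155.4 to 146.8 and 151.2 (0.37 ± 0.08, 0.018). MEF2A fell from 12.9 and 14.6 CPM through 6.00 and 6.60 to 1.98 and 6.05 (−1.95 ± 0.47, 0.026), but the called peaks in its window covered 4005 bp (ZZ) and 3840 bp (DZ) in E18, but 523 and 1678 bp in E28, and with the covered length as an offset the value was 0.02 (0.93), where the median of all windows was 0.55 and the 6 other members were called higher. The 3 calls ended without E18 ZZ, with HDAC9 at 0.51 (adjusted p = 0.071), MEF2C at 0.33 (0.12) and MEF2A at −1.60 (0.13), and without E18 DZ, at 0.45 (0.12), 0.40 (0.11) and −2.34 (0.10). Without E28 ZZ HDAC9 had 0.34 (0.096), MEF2C 0.30 (0.069) and MEF2A −1.29 (0.019), without E28 DZ MEF2A had −2.80 (0.0071), and without E21 DZ MEF2C had 0.34 (0.050).

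The other 4 windows did not pass the test, with 91.2 to 102.1 CPM for MEF2D, 227.5 to 273.3 for HDAC4, 106.8 to 122.2 for HDAC5 and 93.4 to 120.9 for HDAC7. Their log2 fold changes from E18 to E28 were 0.00 ± 0.09 for MEF2D, −0.05 ± 0.07 for HDAC4, 0.03 ± 0.08 for HDAC5 and −0.31 ± 0.11 for HDAC7, with edgeR adjusted p from 0.065 to 0.98. The edgeR test called none of the 7 from E18 to E21 (2.02% of all windows called) although HDAC9 and MEF2C had unadjusted p under 0.05 there (0.62 ± 0.10, adjusted p = 0.055, and 0.38 ± 0.08, adjusted p = 0.069), where DESeq2 called 4 and 34.4% of all windows. From E21 to E28 (6.07% called) it also called none, with HDAC4 at an unadjusted p of 0.022 (−0.22 ± 0.07) and 1 call by DESeq2, which called 34.8% of all windows. These are sums over all cells, in which a change of cell mix and a change per cell cannot be told apart.

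No member differed between the breeds past the threshold. Between DZ and ZZ edgeR called 0 of 80 regions (0% of all regions) and 0 of 7 windows (0.00436% of all windows), and DESeq2 called 1 region (0.202% of all) and 1 window (2.29%). Before adjustment 4 regions and 1 window passed 0.05, as did 4.94% of all regions and 5.22% of all windows. These counts lay near the shares over all features. The window was MEF2C, which edgeR gave 0.17 ± 0.06 higher in DZ on the log2 scale (adjusted p = 0.82) and higher in DZ at each of the 3 stages. The remaining windows ran from −0.05 ± 0.06 for HDAC4 to 0.65 ± 0.37 for MEF2A.

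Cells were then classed by open peaks at marker genes, such as MYOG and MYOD1 for muscle, CDH5 and TIE1 for endothelium and ELAVL4 and STMN2 for neurons, none of them a member, to see where the members' regions were open. A cell joined a class when at least 4 marker peaks were open and at least 4 times as many as its depth gave on average. The muscle class had 44 and 44 cells at E18, 102 and 125 at E21, then 190 and 259 at E28, the endothelial class 130, 95, 67, 77, 86 and 76 cells in the same order of libraries and the neuron class 62, 55, 74, 70, 47 and 42. Each class is a range of a score and not a type, and between 80 and 469 cells per library and class had ratios from 3 to 6. Markers that had no part in the choice were summed as a check. The 10 muscle check genes, such as DES and TTN, reached 402 and 412 CPM in the muscle class at E18 against 309 and 314 in cells of no class, and 728 to 997 against 311 to 414 at E21 and E28. The endothelial check genes, such as PECAM1 and ERG, reached 920 to 1227 CPM in their class against 629 to 800, and the neuron check genes 516 to 863 against 485 to 553. The 6 heart check genes summed to 62 to 252 CPM in the muscle class and 67 to 246 in cells of no class. The 10 neural progenitor check genes, such as SOX2 and PAX6, gave 845, 748, 761 and 807 CPM in the muscle class from E18 ZZ to E21 DZ, beside 771, 823, 773 and 703 in cells of no class. They were higher in it at E28, with 716 against 500 in ZZ and 804 against 561 in DZ. Their part in the muscle class results was not tested.

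Each class was compared with cells of no class, with library as a block, so both sums of a library used the same peaks. The sums differed in depth. Per library a class held 361954 to 2563559 counts and cells of no class 86231613 to 130541336, so raw counts of the 2 are not on one scale. In the muscle class 11 of 80 member regions were higher and 14 lower, beside 8.04% and 12.1% of all regions. MEF2D and HDAC5 held 3 rises each and no fall, MEF2C 2 and 1, HDAC4 2 and 2, HDAC9 1 and 11, HDAC7 none in either direction, and the MEF2A region was not called. The median log2 fold change was −0.27 in the members and −0.30 in all regions, so a value of 0 stands above the median region. A MEF2D rise, at the exon at 20.4 kb (0.93 ± 0.34, edgeR adjusted p = 0.049), ended without any one library but E18 DZ (adjusted p from 0.069 to 0.17). It stood below 0 under 2 other class rules, but these put the median of all regions at −1.49 and −1.07, and it stayed above both. An HDAC5 rise, at the intron at 15.7 kb (1.29 ± 0.40, 0.016), ended without E21 ZZ (1.29, 0.057), E21 DZ (1.25, 0.073) or E28 ZZ (0.97, 0.16). Without E21 DZ 12 of the 80 were called in all and without E28 ZZ 14, beside 12.3% and 13.4% of all regions.

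The MEF2D intron at 6.9 kb had 14.5 and 6.27 CPM in the muscle class at E18, 51.3 and 39.5 at E21, then 34.7 and 42.5 at E28, against 3.35 to 4.97 CPM in cells of no class. The groups did not overlap, but the muscle class of E18 DZ held 478343 counts in all, so its 6.27 CPM rests on few. The log2 fold change was 2.997 ± 0.32 (edgeR adjusted p = 9.4e-10), with 2.39 (0.033) under a stricter ratio limit of 6. The second MEF2D intron, at 11.95 kb, had 38.7, 35.5, 43.8, 71.9, 64.9 and 72.2 CPM in the muscle class, from E18 ZZ to E28 DZ, against 10.96 to 17.9 (1.80 ± 0.21, adjusted p = 1.1e-08). In sums over all cells neither region was called between stages, at 0.49 ± 0.30 (0.24) and −0.31 ± 0.16 (0.19) from E18 to E28. With the covered length as an offset the first was called at 1.46 and the second had 0.42 (0.060), beside the median region at 0.43. The MEF2D promoter itself did not pass the test in the muscle class.

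MEF2C differed between its starts, of which the annotated one, like the 11.7 kb intron, also lies in the window of LOC102159394. The promoter at the annotated start had 2.42, 12.5, 11.3, 21.2, 18.7 and 37.4 CPM in the muscle class from E18 ZZ to E28 DZ, against 0.62, 0.726, 2.06, 1.78, 2.31 and 3.94 in cells of no class, higher in 6 of 6 libraries (3.15 ± 0.41, edgeR adjusted p = 1.2e-07). In E18 ZZ the muscle class held 413107 counts in all, so its 2.42 CPM rests on very few. The intron at 11.7 kb had 7.26, 33.4, 25.7, 16.5, 9.14 and 13.7 CPM against 1.62 to 9.46, higher in 5 of 6 (1.99 ± 0.39, 0.00017). The strongest MEF2C promoter, at 20.4 kb, was lower in the muscle class in 5 of 6 libraries, with 19.4 to 50.2 CPM against 37.0 to 64.2 (−0.61 ± 0.17, 0.0099). That call ended without E21 DZ (−0.58, 0.051), without the library block (−0.55, 0.092) and under a looser ratio limit of 3 (−0.29, 0.073), where the median of all regions was at −0.09.

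HDAC5 followed, with the 17.9 kb intron at 0, 8.36, 9.06, 11.8, 40.2 and 31.6 CPM in the muscle class against 1.28, 0.644, 1.74, 1.998, 5.83 and 8.40 in cells of no class (2.39 ± 0.41, edgeR adjusted p = 2.5e-05). Its inner promoter at 12.8 kb had 14.5 CPM in E18 ZZ, below the 23.1 of cells of no class, and 25.1 to 61.9 in the other libraries, above their 16.9 to 20.2 (1.02 ± 0.23, 0.00086). The start promoter of HDAC5 did not pass the test in any class. Under the ratio limit of 6 the muscle class values were 1.28 (adjusted p = 0.30) at the MEF2C start, 1.54 (0.13) at 11.7 kb, 1.18 (0.11) at the MEF2D intron at 11.95 kb, 1.63 (0.16) at the HDAC5 intron and 0.16 (0.85) at the HDAC5 inner promoter, beside a median of −1.49 over all regions, so of the rises described the MEF2D intron at 6.9 kb kept its call, with 4 to 53 muscle class cells per library.

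Of the 33 HDAC9 regions, 11 were lower in the muscle class and 1 higher, and the others were not called, with values up to 1.35 ± 0.56 at 544.8 kb (edgeR adjusted p = 0.077). The exon at 808.0 kb had 14.5 and 16.7 CPM in the muscle class at E18, slightly above the 13.9 and 11.3 of cells of no class, then 10.6 and 5.89 against 29.5 and 34.4 at E21 and 1.83 and 0 against 28.4 and 29.9 at E28 (−2.18 ± 0.42, edgeR adjusted p = 0.00014). DESeq2 gave −2.17 there (adjusted p = 0.071). The exon at 372.6 kb had 2 counts in the muscle class of all libraries, both in E18 DZ, and 2022 in the far deeper sums of cells of no class. The 1 HDAC9 rise, at 495.3 kb, named after its values were seen, had 19.4, 8.36, 22.6, 44.8, 18.7 and 23.8 CPM against 4.29 to 17.5 (1.01 ± 0.31, adjusted p = 0.015). Mesenchymal genes moved with these falls: the 10 check genes of that list, such as PDGFRA and COL1A1, summed to 651, 677, 549, 562, 491 and 380 CPM in the muscle class and to 703, 651, 715, 816, 939 and 857 in cells of no class. Their part in the result was not tested.

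**Figure D4:**
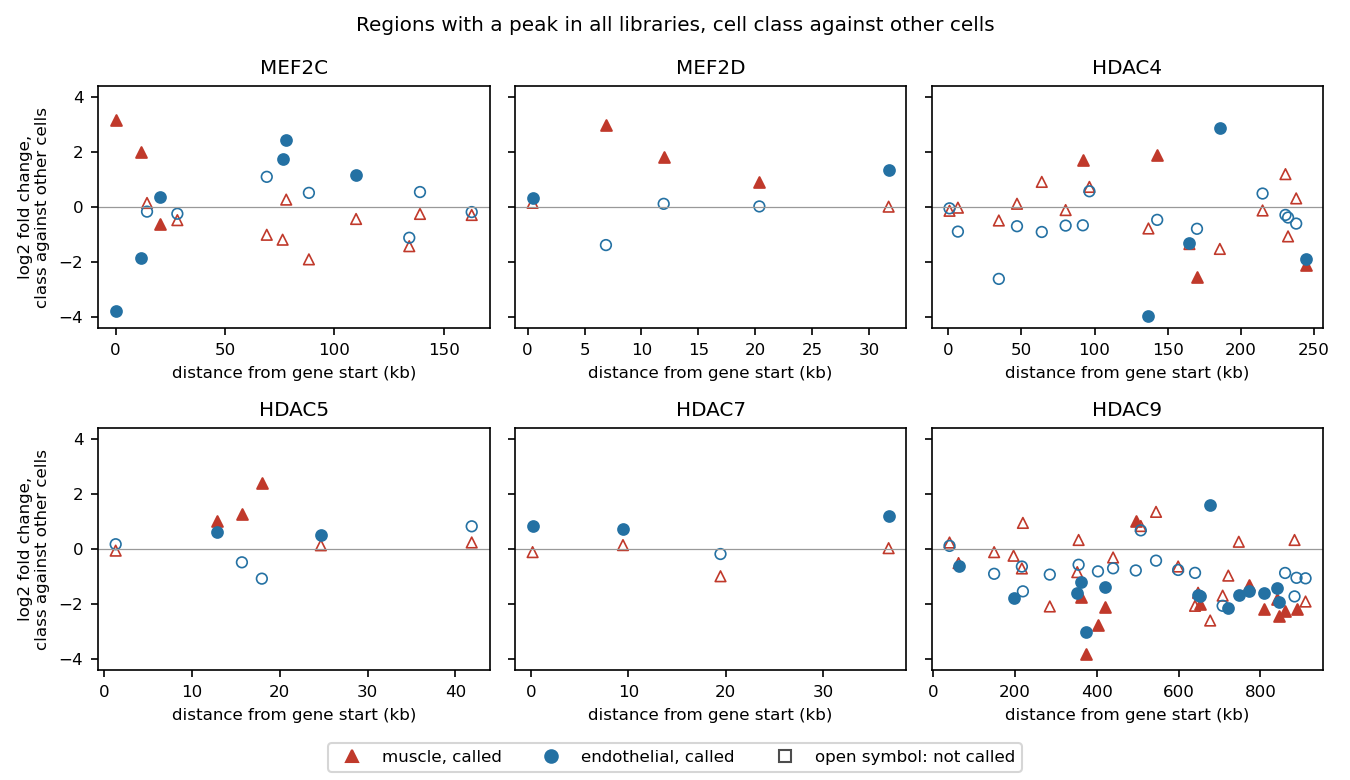
Each panel is 1 gene with all its regions that had a peak in every library; the x axis is the distance from the gene start in kb and the y axis the log2 fold change of the muscle class (triangles) or endothelial class (circles) against cells of no class, filled when called. MEF2D and HDAC5 have filled triangles above 0 alone, HDAC7 has 3 filled circles above 0, and HDAC9 has most of its filled symbols below 0. The lowest circles of MEF2C and HDAC4 rest on 1 count in the class.

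The endothelial class had 13 member regions higher and 19 lower, beside 6.66% and 17% of all regions, with a median of −0.67 in the members and −0.41 in all regions. HDAC7, a deacetylase with known roles in vessel integrity, had 3 of its 4 regions higher. Its start promoter had 66.7, 125, 69.9, 111, 106 and 92.3 CPM in the class against 44.0 to 56.3, without overlap (0.84 ± 0.11, edgeR adjusted p = 2.1e-13), and its intron at 9.4 kb 80.1, 113, 69.9, 89.3, 90.0 and 74.6 against 41.4 to 59.5, again without overlap (0.71 ± 0.11, 2.6e-09). The region at the 3′ end, 36.8 kb, which reaches the neighbouring gene SLC48A1, had 13.3 to 35.7 CPM against 3.68 to 11.6 (1.198 ± 0.31, 0.0014). Under the ratio limit of 6 it had 0.45 (0.61), where the median of all regions was at −1.24.

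MEF2C had 4 rises and 2 falls in the endothelial class. The promoter at 76.3 kb had 17.3, 25.4, 26.7, 36.0, 28.1 and 31.1 CPM in the endothelial class against 6.93 to 8.52, without overlap (1.76 ± 0.25, edgeR adjusted p = 2.0e-10), and the promoter at 78.0 kb 6.67, 34.8, 7.19, 16.5, 2.90 and 6.21 against 0.58 to 3.58, higher in 6 of 6 libraries (2.43 ± 0.50, 3.2e-05). The intron at 109.9 kb had 36.7, 41.4, 41.1, 45.02, 43.5 and 32.8 CPM against 8.09 to 26.2 (1.17 ± 0.17, 1.8e-10). Under the ratio limit of 6 it had 0.67 (0.16), where the median of all regions was at −1.24. The strongest promoter, at 20.4 kb, had 51.4, 61.1, 47.3, 72.0, 91.9 and 94.1 CPM in the class, above cells of no class in 5 of 6 libraries (0.35 ± 0.11, edgeR adjusted p = 0.014). Its call ended without E21 DZ (0.32, 0.057), without E28 ZZ (0.32, 0.058), without the library block (0.36, 0.20) and under the ratio limit of 6 (0.29, 0.32). The falls, at the annotated start and at 11.7 kb (−1.83 ± 0.65, 0.026), were also not stable. The first ended without either E28 library and without E21 ZZ (edgeR adjusted p from 0.052 to 0.095) and the second without E18 ZZ, E18 DZ, E21 DZ or E28 ZZ (0.051 to 0.17). The annotated start, high in the muscle class, had 1 count in the endothelial class of all libraries and 1144 in the far deeper sums of cells of no class. The endothelial and muscle classes were each tested against cells of no class, which they share, and the difference between them was not tested.

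HDAC4 had 1 rise and 3 falls in the endothelial class. The intron at 185.7 kb had 19.3, 17.9, 15.4, 8.25, 5.80 and 0 CPM against 2.79, 3.55, 0.925, 0.863, 1.21 and 0.0106 (2.86 ± 0.56, edgeR adjusted p = 9.2e-06), and E28 DZ had nearly no called peak there. Under the ratio limit of 6 it had 1.99 (0.087). Its inner promoter at 136.8 kb had 1 count in the class and 1321 in the far deeper sums of cells of no class. HDAC5 and MEF2D had 2 rises each. The MEF2D exon at 31.7 kb, named after its values were seen, had 31.4, 32.0, 25.7, 15.0, 5.80 and 9.76 CPM in the class, above cells of no class in 6 of 6 libraries (1.35 ± 0.30, edgeR adjusted p = 0.00013). It had 1.18 (0.10) under the ratio limit of 6 and 1.37 (0.056) without the library block. The others were smaller, with 0.60 ± 0.18 (0.0056) at the HDAC5 inner promoter and 0.33 ± 0.11 (0.015) at the MEF2D start. The MEF2D start had 0.31 (0.058) without E21 DZ and 0.27 (0.11) without E28 ZZ. Under the ratio limit of 6 the HDAC5 inner promoter had 0.04 (0.95) and the MEF2D start −0.07 (0.82), and the other HDAC5 rise, at the exon at 24.7 kb (0.52 ± 0.12, 0.00055), had 0.14 (0.69). That limit moved the median of all regions from −0.41 to −1.24, below each of these values, so they lost the call but not their place above the median.

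**Figure D5:**
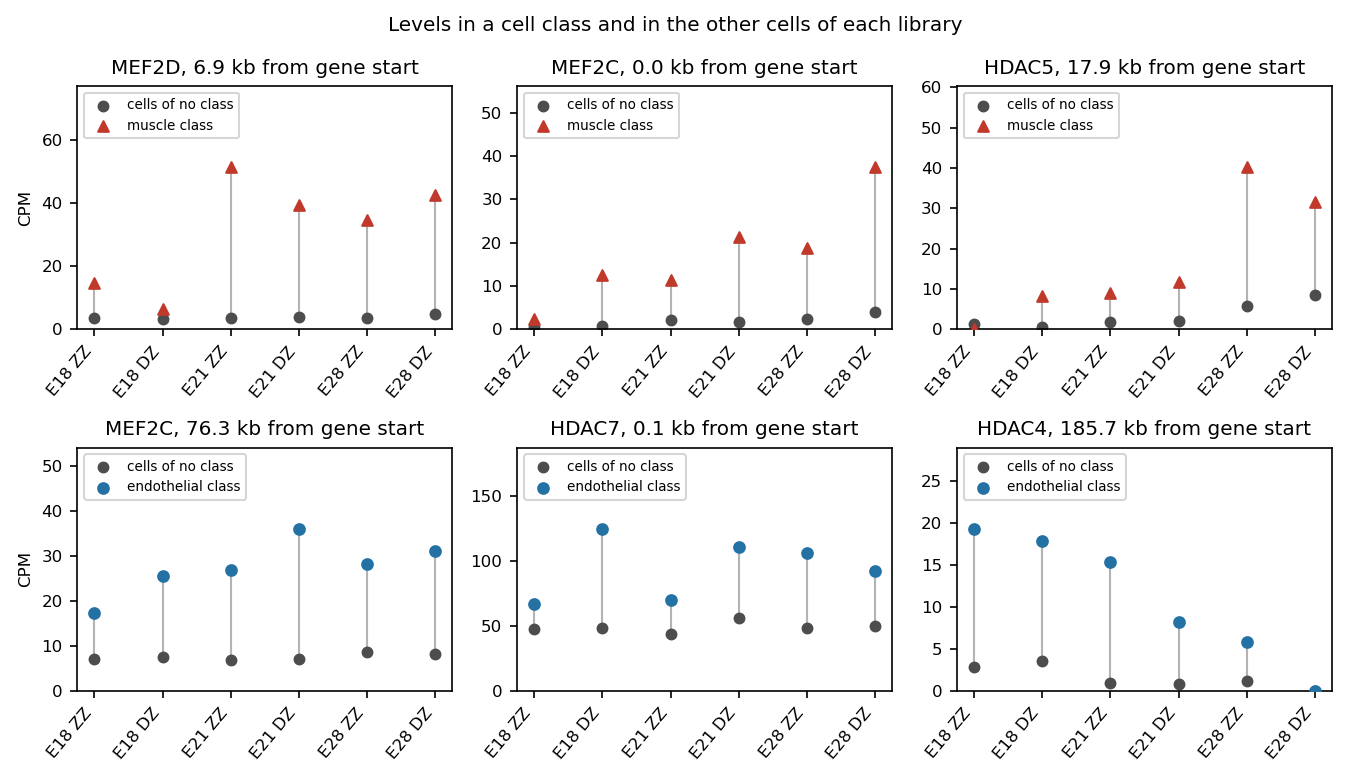
Each panel is 1 region; the x axis gives the 6 libraries, the y axis CPM, coloured symbols the muscle (triangles) or endothelial (circles) class and grey circles the cells of no class in the same library, joined by a line. The MEF2D intron reaches 51.3 CPM in the muscle class where no grey point exceeds 4.97, and the HDAC7 promoter reaches 125 CPM in the endothelial class where no grey point exceeds 56.3.

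HDAC9 had 14 falls and 1 rise in the endothelial class. The exon at 808.0 kb had 4.67, 1.88, 14.4, 12, 7.74 and 12.4 CPM, below cells of no class in each library (−1.60 ± 0.25, edgeR adjusted p = 1.6e-08), and the exon at 747.2 kb 1.88 to 9.67 against 12.4 to 21.4, without overlap (−1.67 ± 0.33, 1.4e-05). Under the ratio limit of 3 the exon at 808.0 kb had −0.97, and under that of 6 it had −3.02 and the exon at 747.2 kb −2.84, all still called, where the median region was at −0.16 and −1.24. Its promoter at 61.8 kb was lower in 5 of 6 libraries (−0.63 ± 0.17, 0.0024), with −0.59 (0.10) without the library block. The rise, at 677.3 kb (1.61 ± 0.62, 0.043), ended without any one library but E18 ZZ, with values of 1.40 (0.14) without E18 DZ, 1.57 (0.10) without E21 ZZ, 1.74 (0.076) without E21 DZ, 1.59 (0.079) without E28 ZZ and 1.46 (0.13) without E28 DZ. The mesenchymal check genes summed to 432 to 560 CPM in the endothelial class against 651 to 939 in cells of no class, and their part in the falls was not tested.

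The neuron class gave no rise and 8 falls among the 80 regions, beside 0.316% and 3.44% of all regions, with a median of −0.83 in the members and −0.56 in all. The main MEF2C promoter had 23.97, 3.63, 34.1, 29.8, 44.2 and 63.1 CPM in the class, below cells of no class in 6 of 6 libraries (−1.02 ± 0.21, edgeR adjusted p = 0.00075), the HDAC7 start was lower in 5 of 6 (−0.77 ± 0.21, 0.016) and the MEF2D start in 4 of 6 (−0.72 ± 0.19, 0.014). Without E21 DZ the latter had −0.56 (0.19) and −0.60 (0.13), without E18 ZZ the HDAC7 start −0.66 (0.088) and without E21 ZZ the MEF2D start −0.57 (0.14). Under the ratio limit of 3 the main MEF2C promoter had −0.29 (0.13), the HDAC7 start −0.18 (0.37) and the MEF2D start 0.03 (0.89), where the median of all regions was at −0.14. DESeq2 gave −0.79 (0.094), −0.53 (0.29) and −0.48 (0.35). None of the 3 calls held under either. HDAC9 held 4 of the falls. The intron at 402.8 kb and the MEF2A intron at 100.6 kb had 0 counts in the class against 2472 and 1792 in the far deeper sums of cells of no class. The check genes of this class stood less apart at E18, with 553 and 516 CPM in it against 487 and 485 in cells of no class, while the neural progenitor check genes had 1024 and 981 CPM against 771 and 823. The mesenchymal check genes had 435 to 539 CPM in 5 libraries, below the cells of no class, but 939 CPM in E28 ZZ, where cells of no class also had 939. The part of either list in the falls was not tested. DESeq2 called 1 of the 80, beside 1.70% of all regions, and without the library block none of the 80 was called, beside 0.129%. Without E18 ZZ 4 were called, without E21 ZZ 3 and without E21 DZ 1, beside 2.43%, 1.04% and 0.728% of all regions.

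Whole windows were compared in the same way, but under the main settings alone. No library was left out and no other tool, ratio limit or block was tried, so their stability was not tested. In the muscle class MEF2D (0.99 ± 0.11, edgeR adjusted p = 1.9e-06) and HDAC5 (0.53 ± 0.13, 0.0086) were higher and HDAC9 lower (−0.60 ± 0.14, 0.0043), beside 7.53% and 7.06% of all windows. MEF2D had 150.5 to 214.2 CPM in the muscle class against 89.8 to 98.7. HDAC5 was higher in 5 of 6 libraries, with 92.0 CPM in the muscle class against 114.7 in E18 ZZ. In the endothelial class HDAC7 (0.76 ± 0.09, 2.2e-11), MEF2C (0.56 ± 0.09, 1.6e-07), MEF2D (0.41 ± 0.09, 0.00032) and HDAC5 (0.36 ± 0.09, 0.0011) were higher and HDAC9 lower (−1.02 ± 0.09, 2.5e-17), beside 9.18% and 14%. In the neuron class MEF2C was lower (−0.50 ± 0.14, 0.020) and none was higher, beside 1.71% and 1.58%.

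Other genes of the pathway were counted by window, where 20.9% of all windows rose and 22.1% fell from E18 to E28. Of 16 corepressor partners, 6 rose from E18 to E28 and none fell, among them the heterochromatin protein gene CBX5 (0.63), the repressor BCL6 (0.59) and the 14-3-3 genes YWHAZ (0.53) and YWHAB (0.52). Of 24 kinases and phosphatases, 4 rose, with the calcineurin subunit PPP3R1 (0.71) and GSK3B (0.53), and 7 fell, with the calmodulin kinases CAMK4 (−0.80) and CAMK2B (−0.58). Of 7 coactivators 3 rose and 2 fell: MAMSTR, a MEF2 coactivator of skeletal muscle, rose by 0.43 and EP300 by 0.42, and KAT2B and MYOCD fell by 1.03 and 0.87. Of 8 further genes, 7 deacetylases and MEF2B, HDAC8 (0.87) and HDAC2 (0.39) rose and MEF2B (−1.47) and HDAC10 (−0.26) fell. The counts for the kinases and for the further genes lay near the shares over all windows. Genes of these lists, and the targets below, were read under the main settings only. How far their counts depend on 1 library or on covered length was not tested. The member window calls of this comparison did not hold without either E18 library, as given above. With the covered length as an offset 66.6% of all windows rose. Covered length was lower at E28 in the falling genes given next, but also in some that rose. EP300 had 6583 (ZZ) and 6174 bp (DZ) at E18 and 3575 and 3558 bp at E28. MAMSTR went from 7633 and 6296 bp to 4767 and 4792 bp, whereas PPP3R1 went from 4248 and 4032 bp up to 4831 and 5176 bp. Peaks called in MEF2B spanned 4680 bp (ZZ) and 4297 bp (DZ) in E18, but 1510 and 1535 bp in E28. Those in KAT2B went from 9693 and 10108 bp to 2954 and 3432 bp, those in MYOCD from 12917 and 11948 bp to 3795 and 4684 bp, and those in CAMK4 from 8578 and 7756 bp to 2806 and 3727 bp. Medians of the 5 lists ran from −0.01 to 0.34, beside −0.04 over all windows.

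Known MEF2 targets were counted in the same way. Of 19 tested, 6 rose from E18 to E28 and 2 fell, beside 20.9% and 22.1% of all windows, with the myogenic factor MYOG at 1.53, the sarcomere gene MYOM1 at 1.14 and JUN at 1.01, while MYOZ1 went from 12.9 (ZZ) and 13.8 CPM (DZ) at E18 to 0 and 0.0912 at E28, where called peaks in its window covered 0 and 63 bp. MYOG (2.96 in the muscle class) and CKM (2.61) were among the markers that chose that class, so their rise in it was fixed by the choice. Of the other 17 targets 7 were higher in the muscle class, among them MYOZ2 (2.49) and XIRP1 (2.04), and none lower, beside 7.53% and 7.06% of all windows, with a median of 0.58 beside −0.06 over all windows. Without the 2 targets that served as muscle check genes, DES and ACTC1, 5 of 15 were higher, with a median of 0.35. Of the coactivators KAT2B (0.63), MAMSTR (0.58) and CREBBP (0.37) were higher there, and 1 gene each of the other lists, TBL1X (0.57), CAMK2A (0.43) and HDAC11 (0.54). In the endothelial class 6 of the 19 targets were higher and 8 lower, beside 9.18% and 14% of all windows, led by MYOG (−1.78), ACTC1 (−1.09), SMPX (−0.92) and MYOM2 (−0.87). Without MYOG, CKM, DES and ACTC1, 6 of 15 were higher there and 4 lower, and the median went from −0.31 to 0.04. From E18 to E21 MEF2B alone of all the lists was called (−0.98), beside 2.02% of all windows. From E21 to E28 KAT2B alone was called (−0.76), beside 6.07%. Between the breeds no gene of the lists was called, beside 0.00436%. None of these counts was above the share over all windows.

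Windows whose log2(CPM + 1) followed a member most closely over the 24 sums of library and class were found by the Pearson correlation, which describes sums that share libraries and depth. For MEF2C they were LOC106508640 (0.890), ELK3 (0.873) and PLEKHO1 (0.848), and for HDAC7 LOC106509455 (0.869), ECE1 (0.867) and IGFBP7 (0.864). MEF2D was closest to LOC106505879 (0.898), TAF4 (0.881) and TBC1D8 (0.869), HDAC5 to LOC110257280 (0.824), RTN2 (0.814) and PRKAR1A (0.814) and HDAC4 to ST3GAL4 (0.855), CEP295NL (0.797) and TMEM176B (0.781). HDAC9 was closest to ROR1 (0.858), DGKI (0.836) and SLC14A2 (0.831), and the shallow MEF2A window to LOC106507324 (0.853), LOC110260801 (0.828) and LOC110256109 (0.826).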

How the data were processed

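Single-cell ATAC-seq libraries of pig somites and myotomes were used (6 libraries, 1 per stage and breed). Per the labels and file headers, the authors aligned reads to Sscrofa11.1, called peaks and cells in each library and counted with Cell Ranger ATAC (version 1.2.0 in the matrix header); the submitters' notes also name Signac 0.2.2 and Seurat 3.1.1. The deposited values are raw counts of Tn5 cut sites per peak and barcode, without normalization, and they exist only inside the peaks of the library itself. Depth and precision follow the kept counts given in the report. Values of single sums carry counting error and any difference between sows, embryo pools or preparations. With 1 library per stage and breed these cannot be separated. Even numbers made up 90.1% (E28 DZ) to 92.4% (E21 DZ) of the values stored for each library. Counts thus came mostly in pairs and were not independent, so small counts rest on fewer events than their number.

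Barcodes with 2000 to 30000 counts were kept, and no doublet caller was run. Peaks overlapping by at least 1 bp were merged. Promoters overlap the 2 kb upstream of, or the start of, a transcript of the member; other regions with an exon base are exon regions and the rest introns. Counts were tested with the edgeR 4.0.16 quasi-likelihood test (R 4.3.3, TMM, filterByExpr, Benjamini-Hochberg adjustment over all features, adjusted p under 0.05). Stage and breed were the terms, which left 2 residual degrees of freedom. On counts simulated with a spread set by hand, the test from E18 to E28 recovered 96% to 100% of changes to 2, 4, 0.5 or 0.25 times. Smaller changes, like many of those called here between stages, were not simulated. The simulated libraries also had no breed or covered length difference, so these shares do not give the power in the real libraries. The muscle class test recovered 34% of rises to 2 times and 22% of falls to 0.5 times. It recovered 98% of rises to 4 times and 76% of falls to 0.25 times, so a region that did not pass can still differ. Classes counted marker peaks open in under 10% of a library's cells, a limit chosen after class sizes and check markers were seen. Class sums were tested against cells of no class with library as a block. DESeq2 1.42.0, Python 3.11.15, numpy 2.4.6, scipy 1.17.1 and pandas 2.3.3 served elsewhere. P-values measure the spread between these libraries, which edgeR estimated with help from all features. The smallest class values rest on that shared estimate and not on the libraries of 1 feature alone. The members and lists were chosen with earlier results of these data known.

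Named were all members, their promoters, the 2 strongest other regions of each, the 3 largest rises and falls called from E18 to E28 with covered lengths within 1.5 times, the 4 most positive and 2 most negative calls of each class, up to 4 called genes of a list, and the 3 windows most like a member. Alternatives changed the tool, filters, terms, covered length, limits on barcodes and classes, or left out a library. The scRNA-seq data were not used here.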

Additional observations from a re-analysis of the deposited data

Results flagged for a closer look

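A strong region lay outside the MEF2A window, 56.7 kb upstream of the partial RefSeq model (chromosome 1, 138339759 to 138343332, 3574 bp), and was named after its values were seen. It had 52.2, 53.2, 62.0, 64.5, 65.7 and 58.7 CPM from E18 ZZ to E28 DZ, far above the 1.98 to 14.6 CPM of the whole MEF2A window, and no transcript start is annotated nearer than 56.7 kb. It was not called between E28 and E18 (log2 fold change 0.19 ± 0.09, edgeR adjusted p = 0.14), was higher in the endothelial class (0.39 ± 0.11, 0.0026) and not called in the muscle class (0.10 ± 0.16, 0.72). The files do not tie it to MEF2A.

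Regions outside the tests had peaks in both libraries of 1 stage and in no other library. There were 30 such regions among the 289 of the members at E18 (10.4%), 7 at E21 (2.42%) and 4 at E28 (1.38%), beside 12.7%, 2.21% and 2.23% of all 294825 regions. The strongest were the HDAC4 intron region 140167 bp from the gene start, with 1.80 and 1.72 CPM at E18, the HDAC9 region at 72630 bp, a promoter of an inner start, with 0.773 and 1.34 CPM at E21, and the HDAC9 intron region at 28133 bp, with 1.31 and 3.52 CPM at E28.

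At the HDAC9 exon at 808.0 kb the muscle class was below cells of no class at E21 and E28 but not at E18. The differences were 0.620 and 5.46 CPM at E18, −18.9 and −28.5 CPM at E21 and −26.6 and −29.9 CPM at E28. The E18 values rest on 6 and 8 counts in the class. Neither E18 alone nor the difference between stages was tested.

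In the MEF2D window the log2 ratio of E28 over E18 was −0.0569 in ZZ and 0.135 in DZ, and in the HDAC4 window 0.00653 in ZZ and −0.0371 in DZ. With 1 library per stage and breed these differences were not tested.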

How the results depend on the processing

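Results for stages rest on 1 library per stage and breed and on the width of the called peaks. No paired analysis was possible because a stage of one breed is a single library and no replicate number pairs it with another; the stage fits carry breed as a term and the class fits library as a block. Of the values recomputed under other settings, 1754 kept direction and side of the threshold, 83 passed it only there, 91 lost it and 17 reversed; without 1 library, 1498 kept both, 38 passed and 102 lost the threshold. Comparing windows with covered lengths within 1.5 times gave no member value.

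Called member windows from E18 to E21 (0 in the report) were 4 by DESeq2 (34.4% of all windows) and 1 without the breed term (3.63%). They were 1 with the covered length offset (20.8%) and 0 to 3 without 1 library (0% to 11.2%). From E21 to E28 (0) they were 1 by DESeq2 (34.8%), 5 with the offset (43.5%) and 0 to 1 without 1 library (0.141% to 12.5%). From E18 to E28 (3) they were 6 with the offset (68.7%) and 0 to 3 without 1 library (6.39% to 40.5%). Between breeds (0) DESeq2 called 1 (2.29%). Called member regions from E18 to E21 (7) were 24 by DESeq2 (18.1% of all regions), 21 with the offset (17.6%), 11 with each peak counted as open or not (8.91%), 0 when regions with a peak in at least 1 library were tested and 0 to 27 without 1 library; from E21 to E28 (7) they were 16 (19.7%), 21 (32.4%), 2 of 19 within 1.5 times of covered length (14.7%), 0 with a peak in at least 1 library and 0 to 15; from E18 to E28 (33) 8 of 19 were called within 1.5 times (43.9%) and 13 to 37 without 1 library; between breeds (0) DESeq2 called 1. In the muscle class (25) the ratio limit of 6 gave 15 (14.4% of all regions), and leaving out 1 library 12 to 36 (12.3% to 23.8%). In the endothelial class (32) no library block gave 15 (9.91%), and leaving out 1 library 24 to 30 (17.3% to 22.1%). In the neuron class (8) DESeq2 gave 1 (1.70%), no library block 0 (0.129%) and leaving out 1 library 1 to 8 (0.728% to 3.13%). Counting all marker peaks, an alternative added after seeing the data, gave 0 there (0%). The block changed no other count by over 1.5 times.

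With the covered length offset, values reversed to 0.51 for the HDAC7 window from E18 to E21, 0.47, 0.66 and 0.35 for the MEF2C, HDAC4 and HDAC9 windows from E21 to E28, and 0.0246, 0.92 and 0.78 for the MEF2A, HDAC4 and HDAC7 windows from E18 to E28. Region values reversed to 0.90 and 0.76 for HDAC4 at 185.7 and 80.2 kb from E21 to E28, and to 0.41 for MEF2D at 20.4 kb and 0.47, 0.54 and 0.52 for HDAC7 at 36.8, 9.4 and 0.141 kb from E18 to E28. MEF2D at 20.4 kb in the muscle class had −0.16 under the ratio limit of 6 and −0.0391 with all marker peaks, beside medians of all regions of −1.49 and −1.07. The MEF2D start had −0.0742 in the endothelial class under the limit of 6 and 0.0317 in the neuron class under 3, beside medians of −1.24 and −0.14. These class rules shift all regions together, so a change of sign alone does not show a lost difference. The offset itself moves the median of all features up between stages, by 0.19 to 0.59 for windows and 0.09 to 0.45 for regions; other causes were not tested. Depth also limits the classes, with 42 to 259 cells per library and class.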
